A study of Mus musculus with 3 samples.

Results

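The elastic fibre and microfibril genes are a set of 10 named genes, chosen by name, with no measured value in the rule: elastin (Eln), fibrillin-1 (Fbn1), the fibulins Fbln1, Fbln2 and Fbln5, the microfibril-associated proteins Mfap2, Mfap4 and Mfap5, and the fibulin family genes Efemp1 and Efemp2. Of the 10, 8 were measured, out of 19938 genes with a probe set of their own, and each of the 8 had 1 probe set. Fbn1 and Efemp2 are not analysed here. The values come from mesangial cells, the pericyte-like cells of the kidney glomerulus, of adult male CD-1 mice. All samples carried Tg(Meis1-EGFP)FO156Gsat, a bacterial artificial chromosome in which Meis1 regulatory sequence drives green fluorescent protein, so the sort took glomerular cells in which this sequence was active. Glomeruli were sieved from digested cortex and taken apart with trypsin, and the fluorescent cells were sorted. The labels name both glomerular and extraglomerular mesangium as the source. There were 3 samples in 1 group, each from 1 kidney and not pooled, with no control population and no treatment. Whether they were kidneys of different mice is not stated in the labels, so the spread between samples may be technical in part.

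Elastic fibres give arteries, lung and skin their recoil. They have a core of cross-linked elastin on a scaffold of microfibrils, which are built from fibrillin and decorated by small microfibril-associated proteins. Fibulins bind elastin and fibrillin and bring elastin to the microfibrils, lysyl oxidases cross-link it, and latent TGF-beta binding proteins tie stored growth factor to the same scaffold. In the kidney, elastin is known mainly from vessel walls, whereas microfibrils without elastin are also known from the mesangial matrix.

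All values are deposited log2 signals of a probe set, with 1 array for each sample, called samples 1, 2 and 3, and errors are standard deviations (SD, n = 3). Genes that kidney cells should not express gave the background: keratin-associated proteins and the olfactory, vomeronasal and trace amine receptors. The 95th percentile of their probe sets on each array was the threshold, and a gene counted as above it only if it exceeded it on every array. This silent-gene threshold lay at 7.48, 7.46 and 7.40 in samples 1, 2 and 3, and the median of the silent genes lay between 5.56 and 5.57. Of 1253 silent genes 4.71% passed, a share largely set by the choice of percentile, and 0.958% passed a threshold raised by 1. Probe sets differ in affinity, so the values do not rank the genes by amount, and each gene was read against the threshold and against itself between samples. Where distances of genes are ordered or levels of a list are averaged, this describes signal and not amount. With 1 group, no test between conditions was possible, and no p-value is given.

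Of the 8 measured elastic fibre and microfibril genes, 4 lay above the threshold on all 3 arrays: Eln, Fbln2, Fbln5 and Mfap2. The other 4, Fbln1, Mfap4, Mfap5 and Efemp1, lay below it on every array. Among all 18685 named genes outside the silent families, 58.0% were above the threshold, so the members' share of 50.0% was near the background. With the threshold raised by 1, Mfap2 alone remained of the 8 (12.5%), against 32.7% of named genes. All 8 lay above the median of the silent genes on each array. The means of most other named genes lay above that median too, so this does not set the members apart. Precision is limited by the number of arrays, and without a control population a value above the threshold does not establish expression.

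**Figure D1:**
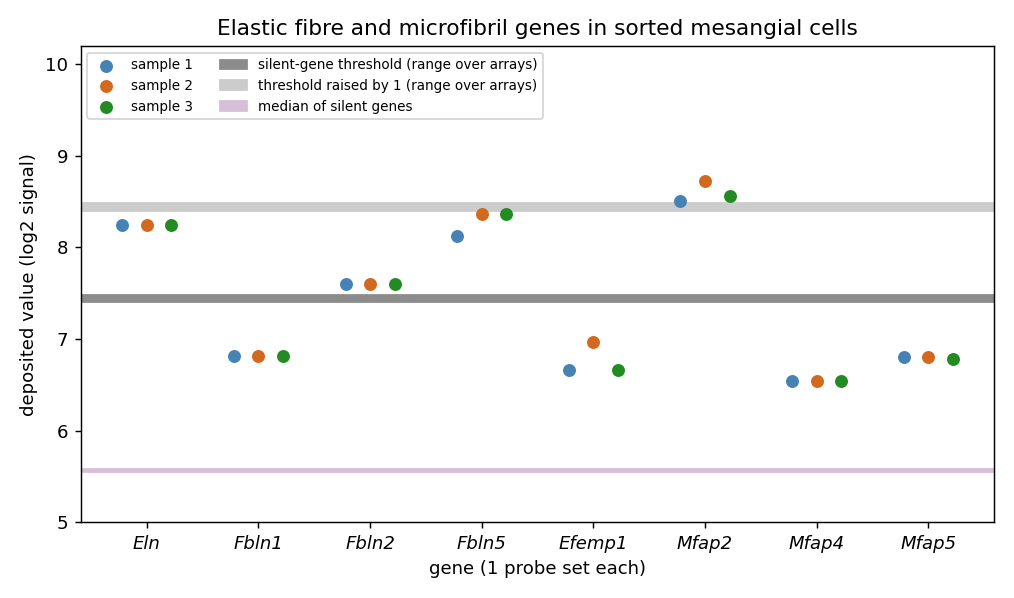
Deposited log2 signal of the 8 measured genes, 1 point for each sample, with bands for the range over the 3 arrays of the silent-gene threshold (7.40 to 7.48) and of the same threshold raised by 1 (8.40 to 8.48), and a line at the median of the silent genes. Eln, Fbln2, Fbln5 and Mfap2 lie above the lower band in all 3 samples, Mfap2 alone lies above the upper band in all 3, and Fbln1, Efemp1, Mfap4 and Mfap5 lie below both.

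Elastin itself was above the threshold by less than 1. Eln, which encodes the soluble precursor that is cross-linked into the elastic core, had 8.25 in samples 1, 2 and 3, identical to the last decimal given. The samples could therefore not be put in any order for this gene. Its distance above the threshold was 0.77, 0.79 and 0.85, the differences coming from the threshold of each array. At least 98.7% of the silent probe sets had a value at or below that of Eln on each array.

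The 3 fibulins Fbln1, Fbln2 and Fbln5 divided, with 2 above the threshold and 1 below. Fbln5, whose protein carries elastin to microfibrils and also binds integrins, had 8.12, 8.36 and 8.36, with a mean of 8.28 ± 0.14 (SD, n = 3). Sample 1 was the low one for Fbln5, and samples 2 and 3 shared 1 value. Its distance above the threshold was 0.64 in sample 1, 0.90 in sample 2 and 0.96 in sample 3, so that it came close to the raised threshold in the last of these without reaching it. Fbln2, a larger fibulin of vessel walls and basement membranes, had 7.60 in all 3 samples and lay only 0.12, 0.14 and 0.20 above the threshold. Fbln2 was the member closest to the limit among those above it. Fbln1, which binds fibronectin and elastin, had 6.81 in all 3 samples, at distances of -0.67, -0.65 and -0.59 from the threshold. Between 84.8% and 85.1% of silent probe sets had a value at or below it, so Fbln1 lay within the silent distribution.

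Efemp1, which encodes fibulin-3, had 6.66, 6.97 and 6.66, with a mean of 6.76 ± 0.18 (SD, n = 3). Sample 2 was higher than the other two by 0.31, the largest range of any member, and samples 1 and 3 shared 1 value. Efemp1 was still below the threshold in sample 2, at a distance of -0.49. In that sample 88.3% of the silent probe sets had a value at or below it.

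The 3 microfibril-associated genes also divided. Mfap2, which encodes a small glycoprotein (MAGP-1) that binds fibrillin and is found on most microfibrils, had 8.51, 8.72 and 8.56, with a mean of 8.60 ± 0.11 (SD, n = 3). Sample 2 was the highest and sample 1 the lowest, and Mfap2 was the 1 member with a different value on each array. It exceeded the threshold by 1.04, 1.26 and 1.15, so its place above the raised threshold rested on a margin of 0.04 in sample 1. Mfap5, the gene of the related glycoprotein MAGP-2, had 6.80, 6.80 and 6.78, with a mean of 6.79 ± 0.01 (SD, n = 3). Its distances from the threshold were -0.68, -0.66 and -0.63, so the pair of related genes fell on opposite sides of it on each array. Mfap4, a fibrinogen-related protein of elastic fibres, had 6.54 in all 3 samples, at distances of -0.94, -0.92 and -0.86. Of the 8 it was farthest below the threshold on each array, and 78.3% of the silent probe sets had a value at or below it.

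**Figure D2:**
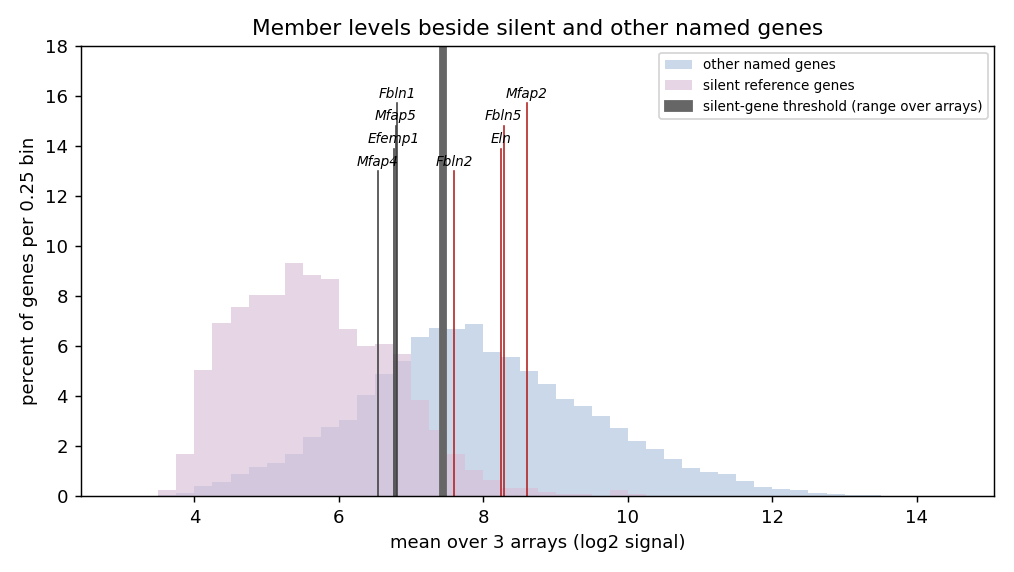
Distribution of gene means over the 3 arrays (log2 signal, percent of genes in bins of 0.25) for silent reference genes and for the other named genes, with a vertical line at the mean of each measured member, red where above the threshold and dark where not. Eln, Fbln5 and Mfap2 lie between 8.25 and 8.60, where few silent genes are found, Fbln2 lies at the edge of the threshold at 7.60, and Mfap4, Efemp1, Mfap5 and Fbln1 lie between 6.54 and 6.81 within the silent distribution.

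The members varied little between samples. Eln, Fbln1, Fbln2 and Mfap4, 4 of 8, carried 1 value on all 3 arrays, and 51.1% of all named genes did so, so the members' share was near the background. Such identical values were found in 39.4% of genes above the threshold and in 67.3% of those not above it. An SD of 0 is therefore no measure of the error for these genes. Over the 8 members the median range between samples was 0.01 and the highest 0.31. Over all named genes the median range was 0.00. Of the 4 members that were not identical, Mfap2 and Efemp1 were highest in sample 2, Fbln5 was lowest in sample 1, and Mfap5 was lowest in sample 3 by 0.02.

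Markers of cells that could supply these transcripts were read beside them. All 10 mesangial markers lay above the raised threshold, among them Pdgfrb, the receptor for platelet-derived growth factor B, at 12.00, 12.11 and 11.99. The marker lists were chosen with earlier results of these data known, so this count is no independent evidence of cell identity. Of 10 vascular smooth muscle markers 6 were above the threshold and 5 above the raised one. Myh11, the smooth muscle myosin heavy chain, had 10.44, 10.19 and 10.70. Cnn1 (7.31, 7.54 and 7.54), Myocd (7.24, 7.18 and 7.33), Actg2 (6.65) and Synpo2 (7.12, 7.07 and 7.07) were not above the threshold. Des was counted both in this list and among the mesangial markers, so the lists overlap. Whether arteriole wall or mesangial cells gave the smooth muscle signals was not tested. Of 12 fibroblast markers 8 were above the threshold and 6 above the raised one, among them Cd34, which endothelium also expresses, at 11.99, 12.00 and 12.00, while the matrix genes Lum (5.33) and Dpt (5.36, 5.59 and 5.59) and the adventitial genes Pi16 (7.34) and Clec3b (6.87) were not. The mean level of the fibroblast markers was 8.44, 8.51 and 8.47 in samples 1, 2 and 3, and that of the smooth muscle markers 8.70, 8.64 and 8.81. The fibroblast markers did not share an order of samples: 6 of the 12 were identical on all arrays, 2 were highest in sample 1 alone and 2 in sample 2 alone, where Mfap2 and Efemp1 were highest. Dcn, for the small proteoglycan decorin, had 7.56, 8.21 and 7.76, and Pdgfra, a receptor of fibroblasts, had 11.11, 11.32 and 11.07. Mmp2, at 11.27, 11.11 and 11.21, and the actin-severing gene Gsn, at 9.40, 9.31 and 9.36, were lowest in sample 2. Of the smooth muscle markers none was highest in sample 2 alone. The part of these cells in the members' values was not tested, and fewer cells of a type and less RNA per cell cannot be told apart in sorted bulk RNA. Of the other kidney cells, 8 of 9 endothelial, 4 of 6 measured podocyte and 6 of 10 tubule markers were above the threshold, and 4, 2 and 0 of them above the raised one. Among all named genes the shares were 58.0% and 32.7%. The smooth muscle (60.0%), fibroblast (66.7%), podocyte (66.7%) and tubule (60.0%) shares above the threshold were near this background, and the endothelial share (88.9%) was higher. Above the raised threshold the shares were 50.0% for smooth muscle, 50.0% for fibroblast, 44.4% for endothelial, 33.3% for podocyte and 0% for tubule markers. Pecam1, Cdh5, Kdr and Vwf passed the threshold by as little as 0.07, 0.13, 0.09 and 0.14, while Emcn, Tek, Ehd3 and Plvap passed the raised one. Of all markers read here the 3 with the widest range between samples were tubule genes: Umod, the uromodulin gene, at 9.51, 9.18 and 8.22, the proximal tubule gene Kap at 8.44, 8.51 and 7.17, and the calcium-binding protein gene Calb1 at 7.72, 8.66 and 8.49. The mean level of the 10 was 7.68, 7.77 and 7.48.

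The 5 members with both a value and a promoter in the RefSeq table of GRCm38.p6, which were Mfap2, Fbln1, Fbln2, Fbln5 and Efemp1, were compared by promoter sequence. Each window runs from 250 bases before to 50 bases after a transcription start, and the promoters of 4 of them are shown to set genes above and below the threshold side by side. CG dinucleotides are in capitals, and where a gene had several windows the one richest in CpG relative to its base composition is given.
Mfap2, chr4:141010431-141010730, strand +: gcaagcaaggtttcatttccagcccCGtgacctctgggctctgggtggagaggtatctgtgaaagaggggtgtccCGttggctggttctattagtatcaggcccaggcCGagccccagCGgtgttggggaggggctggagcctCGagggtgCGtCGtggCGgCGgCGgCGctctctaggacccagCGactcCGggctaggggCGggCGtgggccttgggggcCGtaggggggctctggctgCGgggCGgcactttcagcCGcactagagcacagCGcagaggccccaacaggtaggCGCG
Fbln5, chr12:101819070-101819369, strand -: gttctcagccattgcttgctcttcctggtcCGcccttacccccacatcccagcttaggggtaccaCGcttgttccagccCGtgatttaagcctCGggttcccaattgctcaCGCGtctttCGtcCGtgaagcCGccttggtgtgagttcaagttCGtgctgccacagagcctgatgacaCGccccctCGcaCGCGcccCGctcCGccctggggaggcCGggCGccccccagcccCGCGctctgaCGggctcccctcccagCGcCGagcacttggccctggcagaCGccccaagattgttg
Fbln2, chr6:91212514-91212813, strand +: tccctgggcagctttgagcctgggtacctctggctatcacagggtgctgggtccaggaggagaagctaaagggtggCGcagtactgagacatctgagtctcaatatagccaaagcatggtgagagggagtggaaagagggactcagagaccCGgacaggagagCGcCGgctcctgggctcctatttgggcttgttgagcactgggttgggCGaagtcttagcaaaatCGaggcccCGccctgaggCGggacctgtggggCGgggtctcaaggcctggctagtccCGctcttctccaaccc
Fbln1, chr15:85205758-85206057, strand +: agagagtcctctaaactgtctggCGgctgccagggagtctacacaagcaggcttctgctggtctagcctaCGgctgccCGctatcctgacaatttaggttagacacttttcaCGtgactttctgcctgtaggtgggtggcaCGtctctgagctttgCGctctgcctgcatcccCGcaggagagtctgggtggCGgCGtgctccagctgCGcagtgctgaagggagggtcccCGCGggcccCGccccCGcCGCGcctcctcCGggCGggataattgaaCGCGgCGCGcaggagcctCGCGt
The CpG ratio, the number of CG dinucleotides over that expected from the C and G content, was 0.66 for Mfap2 (22 CG), 0.78 for Fbln5 (24 CG), 0.38 for Fbln2 (10 CG) and 0.78 for Fbln1 (24 CG). Efemp1, not printed, had 0.51 (11 CG). The printed Fbln1 window thus equalled that of Fbln5 in CG number and ratio, with Fbln5 above the threshold and Fbln1 not. This rested on the choice of the richest window, since the other Fbln1 window, which overlaps it, had 12 CG, a ratio of 0.60 and 0 copies of the GC box named below, and the other windows of Fbln5 and Mfap2 had ratios of 0.46 and 0.32. Fbln2 had the lowest ratio of the 5 and was above the threshold. The GC box GGGCGG, searched on both strands, occurred 2 times in each printed window and 1 time in that of Efemp1, and at least 1 time in 35.7% of all 32851 windows. The members' windows were picked for CpG and the 35.7% was not, so these are unlike sets. In the other windows of Mfap2, Fbln5 and Fbln1 there were 0 copies. The TATA box TATAAA, on both strands, was in none of the 5 windows and in 13.6% of all windows. A match describes letters in the window and says nothing of a factor's binding.

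Across the array, the share of genes above the threshold differed by promoter CpG ratio. For 14549 named genes with a window, 24.1% were above the threshold at a ratio under 0.25, 38.6% from 0.25 to 0.5, 66.3% from 0.5 to 0.75, 77.3% from 0.75 to 1 and 83.4% at 1 and over. Fbln2 was thus among the smaller part of its band that was above the threshold, and Fbln1 and Efemp1 were among the smaller parts of theirs that were not. Mfap2 and Fbln5 went with the larger part. These shares are across genes, which are not replicates, and this comparison was added after the values were seen.

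**Figure D3:**
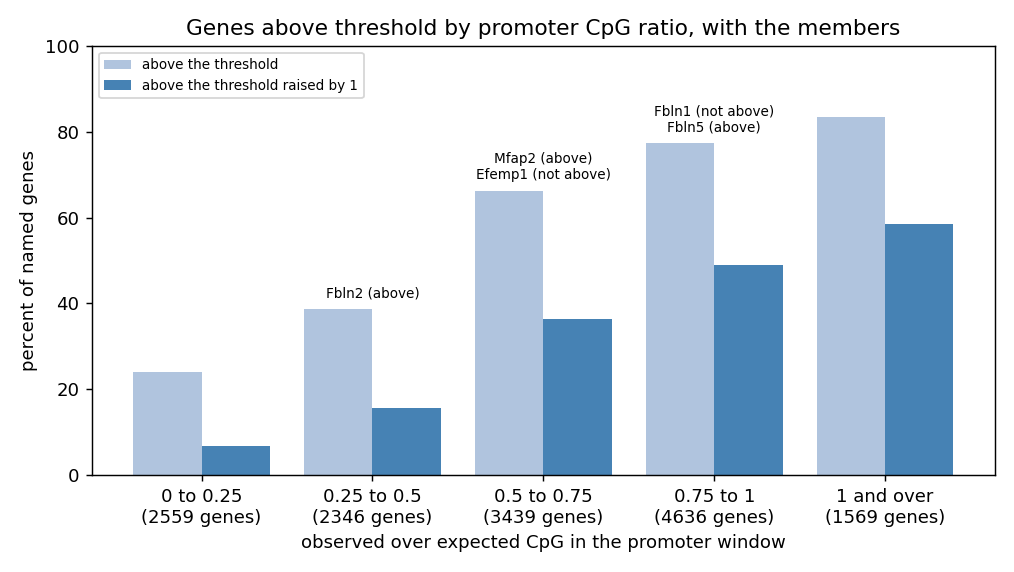
Percent of named genes above the silent-gene threshold (light bars) and above the threshold raised by 1 (dark bars) in 5 bands of the promoter's observed over expected CpG ratio, with the 5 members written over their band. The share above the threshold goes from 24.1% in the lowest band to 83.4% in the highest, and Fbln1 is written as not above in a band where 77.3% of genes were above.

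Other genes of elastic fibre biology were read from a list of 50, of which 48 were measured. Of these, 34 (70.8%) were above the threshold, beside 58.0% of named genes, and 18 (37.5%) above the raised threshold, beside 32.7%. The groups below are described by their counts.

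Of 8 genes of the other fibrillin, fibulin and latent TGF-beta binding protein family, 7 were above the threshold. Ltbp3 had 8.93, 8.80 and 8.80 and Ltbp1 had 8.56 in all 3 samples, and these 2 of the 4 latent TGF-beta binding protein genes also passed the raised threshold. Ltbp4, whose protein also helps to assemble elastin, had 8.01, 8.01 and 8.28, and Ltbp2 had 7.57 in all 3 samples, 0.09 above the highest threshold. Fbln7, a cell-adhesive fibulin, had 8.13 in all 3 samples. Hmcn1, a very large fibulin-like protein, had 7.76, 7.76 and 7.71 on the highest of 77 probe sets, and the median over those sets was below the threshold. Fbn2, the fibrillin of developing tissue, had 6.62 in all 3 samples and was not above the threshold.

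Of the emilin and multimerin genes, whose proteins sit between elastin and microfibrils or in vessel walls, 2 of 5 were above the threshold. Emilin1 had 8.47 in all 3 samples, 0.99 above the threshold in sample 1. Emilin3, at 7.55, 7.48 and 7.55, was above it by as little as 0.02, and the others were not. Emilin2 had 7.16, 7.18 and 7.16, Mmrn1 5.22 in all 3 samples and Mmrn2, a protein of endothelium, 7.01 in all 3. No gene of this group passed the raised threshold.

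Of 5 measured genes for elastin cross-linking, 3 were above the threshold and 2 above the raised one. Lox, the lysyl oxidase best known for elastin and collagen, had 5.76 in all 3 samples at a distance of -1.72 from the threshold in sample 1. Loxl1, the family member tied to elastic fibre upkeep, had 7.52 in all 3 samples, 0.04 above the threshold in sample 1. Loxl3 had 9.23, 8.88 and 9.04, with sample 1 the highest, and Atp7a, a copper pump that loads lysyl oxidases with their metal, had 9.00 in all 3 samples. Loxl3 and Atp7a were the 2 that passed the raised threshold, and Loxl4, at 7.03 in all 3 samples, was not above the threshold. Loxl2 is not analysed here.

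Of 10 measured genes for fibrillin processing and assembly, 6 were above the threshold. The convertase gene Furin, which trims profibrillin, had 8.87, 8.73 and 8.75. Adamts10, a metalloprotease that binds fibrillin, had 9.04, 9.06 and 9.04, and Adamtsl5, a relative without protease activity, had 9.03, 9.03 and 9.15. Adamts17 had 9.54, 9.54 and 9.52 on the highest of 5 probe sets, and its median over the 5 was below the threshold. Fn1, the fibronectin on which fibrillin assembles, had 7.37 in all 3 samples and missed the threshold in each, with a distance of -0.03 in sample 3. Adamtsl3 at 5.48 and Adamts6 at 6.02 in all 3 samples were not above it either, nor was Thsd4 at 7.18, 7.18 and 7.42, which exceeded it in sample 3 alone.

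All 5 growth factor genes whose products are stored on microfibrils lay above the threshold, and 2 passed the raised one. Bmp4 had 10.08 and Tgfb1 had 8.87, each the same in all 3 samples. Tgfb3 had 7.78, 7.60 and 8.31, with sample 3 the highest and a range of 0.71, the widest in the list. Tgfb2 had 7.93, 7.94 and 7.93, and Bmp7 had 7.53, 7.52 and 7.53. The lowest distance above the threshold was 0.45 for Tgfb2, 0.14 for Tgfb3 and 0.05 for Bmp7.

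Of 8 receptor genes 7 (87.5%) were above the threshold and 5 (62.5%) above the raised one, beside 58.0% and 32.7% of named genes. The count of 5 was the highest over the raised threshold of any group in the list of 50, but the groups differ in size. This count includes Itga8, which was also read as a mesangial marker. Itga8, the integrin subunit that anchors mesangial cells to matrix, had 12.94, 12.96 and 12.97, Itgb1, its partner, had 12.37, 12.41 and 12.46, and Itgav, which recognises fibrillin and fibulin-5, had 10.47, 10.33 and 10.51. Itgb3, a partner of Itgav, had 6.85 in all 3 samples and was not above the threshold, while Itgb5, another partner, had 9.51, 9.49 and 9.49. The endocytic receptor gene Lrp1 had 11.07, 10.88 and 10.90.

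Of 7 genes for enzymes that degrade elastin 4 were above the threshold, among them Mmp2, which was also read as a fibroblast marker. Mmp2 had 11.27, 11.11 and 11.21, and the cathepsin genes Ctsl and Ctss had 10.54, 10.48 and 10.54 and 9.80, 9.36 and 9.36. Ctsk had 8.00, 8.08 and 8.00. The elastases of leukocytes, Elane of neutrophils and Mmp12 of macrophages, had 6.64 each in all 3 samples and were not above the threshold, and Mmp9, at 6.80 in all 3, was not either.

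**Figure D4:**
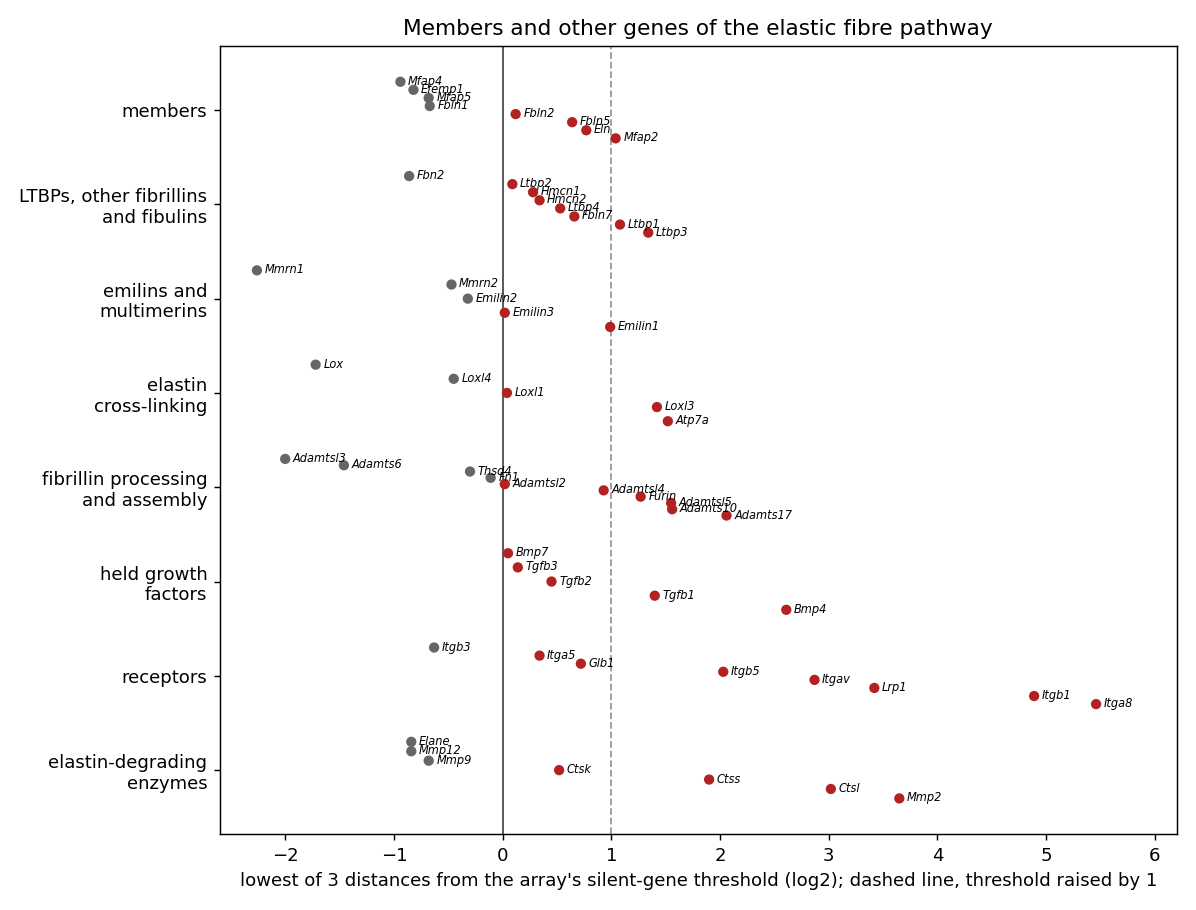
For each of the 8 members and of the 48 other measured pathway genes, the lowest of its 3 distances from the silent-gene threshold of the same array (log2), by group, with red points above the threshold and grey points not above it. The members lie between -0.94 (Mfap4) and 1.04 (Mfap2), while the receptor genes reach 5.46 (Itga8).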

How the data were processed

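RNA of 3 samples of sorted mesangial cells was amplified once, labelled with biotin and hybridised to Affymetrix arrays, 1 per sample, per the labels' protocols. Per the submitters' processing notes, the authors used Affymetrix Expression Console. The values they deposited are probe set signals taken here as log2, since the highest is 14.39. What version, summary method and background correction it used is not given in the sources used here. Array medians were 7.53, 7.56 and 7.54, and further scaling or centring is unknown. A summary that returns identical values for many probe sets makes SDs too small.

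Of 35557 probe sets, 21789 had 1 symbol in the platform annotation, 1621 several and 12147 none. Symbols were updated by Entrez number from RefSeq GRCm38.p6, with 21698 matched. Per gene the probe set with the highest mean was used. The silent reference held 1269 probe sets. All members are named, and the other lists are given by counts, with examples chosen after their values were seen. The rule for the members used no values, but the members and lists were chosen with earlier results of these data known. Promoters were matched by symbol. The code for the calls was run on simulated arrays with known answers. This checked the code and not the calls of members, which lie near the threshold where few expressed genes were simulated. Python 3.11.15, numpy 2.4.6 and pandas 2.3.3 were used. Other percentiles, reference families, probe set rules, a common median, the mean over arrays and leaving out each sample were tried.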

Additional observations from a re-analysis of the deposited data

How the results depend on the processing

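No paired analysis was possible because there was 1 group. The count of 4 members above the threshold, and which 4 they were, held at the 90th percentile and with olfactory receptors alone. The mean of the 3 arrays, either other probe set rule, a common median and leaving out each sample also gave 4. For the members these settings could not have given another count. Each member had 1 probe set and lay on the same side of the threshold on all 3 arrays, and a shift moves the threshold with its array. The 99th percentile and the threshold raised by 1 left 1 member, Mfap2, since both are stricter, and Eln, Fbln2 and Fbln5 fell below. At these 2 settings the wider list counted 20 and 18 in place of 34, and the share of named genes was 35.3% and 32.7% in place of 58.0%. At the 90th percentile the wider list counted 37 and the share of named genes was 68.8%. Either other probe set rule gave 32 of the wider list, without Hmcn1 and Adamts17. Leaving out a sample gave 34 of the wider list each time and shares of named genes from 58.2% to 58.9%. The number of members whose values differed between arrays went from 4 to 8 when arrays were shifted to a common median, because a shift separates identical values, and was 3 without each sample in turn. Taking the first promoter window listed put Fbln1 at a CpG ratio of 0.60. Without a control population, a value above the threshold does not establish expression, least of all at a distance under 1. The raise of 1 was a chosen setting and not a tested limit of background.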
